A study of Mus musculus with 36 samples.

Results

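Carbonic anhydrase transcripts were measured in the gastrocnemius muscle of mice that ran different daily distances on a high-fat diet. The 8 genes described here, Car2, Car3, Car4, Car5b, Car8, Car11, Car13 and Car14, were taken by their gene names from a table of 46893 features, and 6 of the 8 had a mean count of at least 25, the minimum used for the tests. Car5b and Car13 were below that minimum. Male wild-type C57BL/6 mice, 3 to 4 weeks old at the start, were studied for 12 weeks in 6 groups of 6 mice. The label of the NFD-C gives no fat percentage, and this group was taken to be a control on the diet with 16% of energy from fat. The HFD-C was the sedentary control on the diet with 45% of energy from fat. The exercise groups had the 45% fat diet and an in-cage wheel, with mean running distances of 2.1 km/day in the HFD-25%, 4.2 in the HFD-50%, 6.3 in the HFD-75% and 8.3 in the HFD-U. The HFD-U ran without limit, and in the other exercise groups a brake stopped the wheel once the assigned share of the HFD-U distance had been run. All mice were killed with ketamine and xylazine, and 1 gastrocnemius per mouse was sequenced, so the exercise groups share diet, anaesthetic and muscle with the HFD-C. A wheel is described for the exercise groups only, and running distance and wheel housing cannot be told apart between them and the HFD-C.

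Carbonic anhydrases are zinc enzymes that interconvert carbon dioxide and water with bicarbonate and a proton. In muscle they serve carbon dioxide removal, the buffering of protons during contraction and the supply of bicarbonate to carboxylases, and they differ mainly in where they sit: in the cytosol, on the outer face of the plasma membrane, on capillary endothelium or in mitochondria. A few relatives have lost the histidines that hold the zinc ion and do not catalyse the reaction.

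Library totals lay between 13060090 and 27981702 counts with a median of 16710688. The percentage of counts that fell on genes and features tied to ribosomal RNA divided the libraries into 2 sets. It was 2.01% to 3.80% in 10 libraries, the 6 of the NFD-C and 4 of the HFD-C, and 0.404% to 1.02% in the other 26, namely 2 of the HFD-C and all 24 of the exercise groups. The control and exercise groups therefore also differ in library set. Only the tested members were refitted against the HFD-C without the high-share libraries. Those differences are given below for Car2, Car3, Car4, Car11 and Car14. Differences of Car5b, Car13, the other family genes, the partner genes and the marker genes from the HFD-C were not refitted in this way. The defining markers of muscle, such as Myh4, Acta1 and Ckm, were high in each library, with a summed level of 12 muscle genes between 90406 and 168977 CPM (counts scaled to the size of the library). Differences between groups were fitted with edgeR's quasi-likelihood test, and the adjusted p-values below correct for all genes in that fit (Benjamini-Hochberg). The unadjusted limit is a p-value of 0.05 before that correction, the threshold of the study, and a difference is called here when it lies within it. For the members against the HFD-C, an exact two-sided permutation test of the mean log2 CPM is given as well, with 24 such tests in all and 0.00216 as the smallest p that 6 mice against 6 can give.

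Per length of transcript model, the members spanned more than 3 orders of magnitude. Car3, the cytosolic isoform known for its abundance in muscle and fat, had 1112 CPM per kilobase on average over the 36 mice and ranked 44 of 12053 genes. Car14 followed with 14.3 CPM per kilobase, Car4 with 6.57, Car2 with 4.02, Car11 with 3.10 and Car8 with 0.904. Car13 and Car5b were near 0.3, with 0.297 and 0.285 CPM per kilobase. Car3 supplied 89.9% to 98.2% of all counts on the 8 members, which together took 0.0802% to 0.320% of a library. Of the other family genes in the table, Car9, Car15, Car7 and Car1 had 0.968, 0.870, 0.558 and 0.301 CPM per kilobase, while Car5a, Car6, Car10 and Car12 had between 2 and 27 counts in all 36 libraries together.

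**Figure D1:**
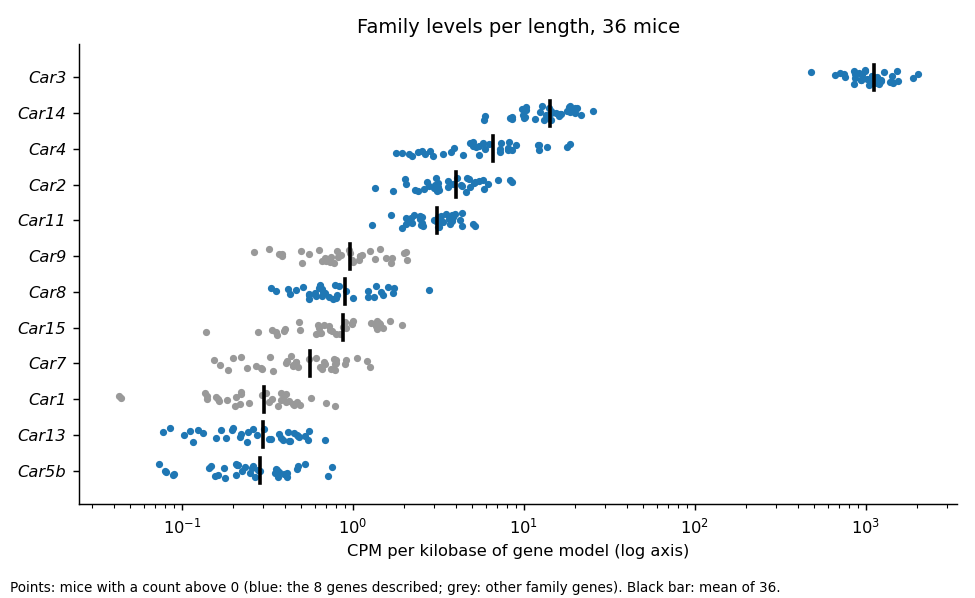
Level of carbonic anhydrase genes in CPM per kilobase of gene model on a log axis, with a point per mouse with a count above 0 and a black bar at the mean of 36 mice. Car3 averages 1112 and all other family genes lie below 30; Car5a, Car6, Car10 and Car12 are left out because most libraries held no count on them.

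The cytosolic members lie side by side on mouse chromosome 3, on the build of the deposited coordinates (GRCm39). Car13 (14706787 to 14728062, + strand), Car1 on the other strand, Car3 (14928598 to 14937441) and Car2 (14951329 to 14965830) span 259044 bases, and Car3 ends 13887 bases before Car2 begins. From mouse to mouse, Spearman's correlation between Car2 and Car3 was -0.55 over the 36 mice and -0.51 after the group means had been subtracted. Correlations here and below are given as a description, without a p-value, because mice share groups, library sets and tissue make-up.

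Car2, the high-activity cytosolic enzyme also known from red blood cells, kidney and osteoclasts, had its highest mean in the HFD-50%, followed by the HFD-25%, HFD-75% and HFD-U, all above both control means. The lowest, median and highest mouse had 3.35, 5.34 and 9.0 CPM in the NFD-C and 2.62, 5.92 and 11.5 CPM in the HFD-C. In the HFD-25% they had 3.98, 8.72 and 16.6 CPM, and in the HFD-50% 5.32, 10.4 and 16.2 CPM. In the HFD-75% the values were 3.95, 8.47 and 13.7 CPM, and in the HFD-U 5.40, 7.68 and 9.39 CPM. The exercise and control groups overlapped in every case. The mean was 10.1 ± 3.76 CPM in the HFD-50% against 6.19 ± 2.89 CPM in the HFD-C (SD, n = 6). This was 0.69 ± 0.30 (SE) higher on the log2 scale, within the unadjusted limit but at an adjusted p = 0.424, and 5 of the 6 mice were above the HFD-C median. The exact permutation test gave p = 0.0671. At the other distances the unadjusted limit was not reached, with log2 differences of 0.57 (95% interval -0.15 to 1.28) in the HFD-25%, 0.41 (-0.25 to 1.06) in the HFD-75% and 0.24 (-0.31 to 0.79) in the HFD-U. In bulk muscle, a change in the number of cells of a type and a change in RNA per cell cannot be told apart. When library set was added to the fit, the Car2 differences were larger: 1.06 in the HFD-25%, 1.18 in the HFD-50%, 0.91 in the HFD-75% and 0.73 in the HFD-U, within the unadjusted limit in the HFD-50% only. In low-share libraries alone it was 1.20 in the HFD-50% and 0.74 in the HFD-U, within the limit, and 1.08 in the HFD-25% and 0.91 in the HFD-75%, outside it. The 2 HFD-C mice with a low ribosomal share had 2.62 and 6.15 CPM of Car2, and the 4 others 5.11 to 11.5 CPM. With single mice left out, Car2 in the HFD-50% stayed within the unadjusted limit in 4 of 12 fits, and the difference was smallest, 0.51, without HFD-50% mouse 5.

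Car3 has low carbon dioxide hydratase activity among the cytosolic isoforms. The lowest, median and highest mouse had 1307, 1740 and 2215 CPM in the NFD-C and 1438, 2017 and 2379 CPM in the HFD-C. In the HFD-25% they had 1023, 1680 and 2186 CPM, in the HFD-50% 1087, 1372 and 3088 CPM, in the HFD-75% 739, 1530 and 2349 CPM, and in the HFD-U 1323, 1606 and 2911 CPM. The exercise means were all below that of the HFD-C, and in each exercise group 5 of 6 mice were below the HFD-C median. No difference reached the unadjusted limit: the log2 differences from the HFD-C were -0.34 (95% interval -0.75 to 0.06) in the HFD-25%, -0.33 (-0.84 to 0.19) in the HFD-50%, -0.35 (-0.82 to 0.13) in the HFD-75% and -0.17 (-0.57 to 0.23) in the HFD-U. In low-share libraries alone the Car3 differences were -0.09 in the HFD-25%, -0.08 in the HFD-50%, -0.10 in the HFD-75% and 0.07 in the HFD-U. The HFD-C mice with a low ribosomal share had 1438 and 1893 CPM, against 1890 to 2379 CPM in the other 4. An antisense-strand gene, Gm41999, shares 528 bases with Car3 and had a mean of 14.1 counts against 30047 for Car3.

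Car13, a further cytosolic enzyme, was counted 0 to 31 times per library. Its median was 0.766 CPM in the NFD-C, 0.822 in the HFD-C, 0.680 in the HFD-25%, 0.425 in the HFD-50%, 0.455 in the HFD-75% and 0.866 in the HFD-U. In a fit without a minimum count its log2 difference from the HFD-C ranged from -0.92 (95% interval -1.96 to 0.12) in the HFD-75% to -0.11 (-1.10 to 0.88) in the HFD-U. Both intervals span 0 and are wide at this depth.

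The 2 membrane-bound members, Car4 and Car14, were higher in the exercise groups than in the HFD-C, within the unadjusted limit at all 4 distances. Car4, on chromosome 11 from 84848580 to 84856880, is held to the outer face of the plasma membrane by a lipid anchor and is known from capillary endothelium and from the muscle fibre surface. Its lowest, median and highest mouse had 3.60, 5.14 and 8.88 CPM in the NFD-C and 2.91, 3.71 and 11.9 CPM in the HFD-C. In the HFD-25% they had 6.35, 11.4 and 29.0 CPM, and in the HFD-50% 8.25, 17.2 and 30.4 CPM. In the HFD-75% they had 7.94, 9.85 and 13.5 CPM, and in the HFD-U 4.15, 12.6 and 20.1 CPM. All 24 running mice were above the HFD-C median and 12 of them were above the highest HFD-C mouse, which stood apart from the other 5 HFD-C mice at 11.9 CPM. No exercise group was free of overlap with the HFD-C.

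The mean Car4 level was 5.25 ± 3.44 CPM in the HFD-C, 14.8 ± 8.93 in the HFD-25%, 17.0 ± 8.31 in the HFD-50%, 10.2 ± 2.17 in the HFD-75% and 11.3 ± 6.09 in the HFD-U (SD, n = 6). The log2 difference from the HFD-C was 1.49 ± 0.41 (SE) in the HFD-25% (adjusted p = 0.389) and 1.70 ± 0.38 in the HFD-50% (adjusted p = 0.121). It was 0.96 ± 0.31 in the HFD-75% (adjusted p = 0.604) and 1.11 ± 0.41 in the HFD-U (adjusted p = 0.790). With the 24 running mice as 1 group it was 1.34 ± 0.35 (adjusted p = 0.103). The exact permutation test of Car4 gave p = 0.0130 in the HFD-25%, 0.00649 in the HFD-50%, 0.0130 in the HFD-75% and 0.0541 in the HFD-U. At an adjusted p of 0.05 the main edgeR fit, with its minimum count and no added terms, called Car4 in none of these comparisons. The call depended on the fit. In the HFD-50% the adjusted p was 0.00254 with DESeq2, 0.0189 without a minimum count, 0.0445 with mouse number as a block and 0.0233 in 1 fit over all groups. In the HFD-25% it was 0.0447 with DESeq2. At this limit DESeq2 called 1.32% of all genes in the HFD-50% and 0.361% in the HFD-25%, and the main fit 0% in the HFD-50%. The shares for the other fits are not given here, so their calls of Car4 cannot be weighed against all genes.

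Car14, on chromosome 3 from 95805080 to 95812443 on the minus strand, spans the membrane and carries its active site outside the cell, and in muscle it is known from the sarcolemma and the sarcoplasmic reticulum. Its lowest, median and highest mouse had 14.2, 26.2 and 35 CPM in the NFD-C and 14.4, 22.8 and 39.1 CPM in the HFD-C. The values were 30.1, 39.1 and 48.2 CPM in the HFD-25%, and 23.6, 39.5 and 62.0 CPM in the HFD-50%. They were 25.1, 45 and 49.5 CPM in the HFD-75% and 24.1, 38.7 and 52.3 CPM in the HFD-U. All 24 running mice were above the HFD-C median and 13 were above the highest HFD-C mouse, with overlap in every group. The 4 exercise means lay between 37.7 and 40.7 CPM, and the NFD-C and HFD-C means were 25.7 ± 7.60 and 25.5 ± 9.24 CPM (SD, n = 6).

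The log2 difference of Car14 from the HFD-C was 0.61 ± 0.21 (SE) in the HFD-25% (adjusted p = 0.519) and 0.62 ± 0.26 in the HFD-50% (adjusted p = 0.420). It was 0.66 ± 0.23 in the HFD-75% (adjusted p = 0.684) and 0.55 ± 0.23 in the HFD-U (adjusted p = 0.844). With all running mice together the difference was 0.61 ± 0.18 at an adjusted p = 0.177. The exact permutation test of Car14 gave p = 0.0195, 0.0693, 0.0303 and 0.0541 from the HFD-25% to the HFD-U. The spread of the 4 differences, from 0.55 to 0.66, was smaller than any of their standard errors. The gene Aph1a, on the opposite strand, shares 825 bases with Car14 and had a mean of 408 counts against 592 for Car14. The use of strand in counting is not given in the sources used here, so reads from the shared bases cannot be told apart. Aph1a differed from the HFD-C by between -0.10 and 0.15 on the log2 scale over the 4 distances, and did not reach the unadjusted limit at any of them.

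**Figure D2:**
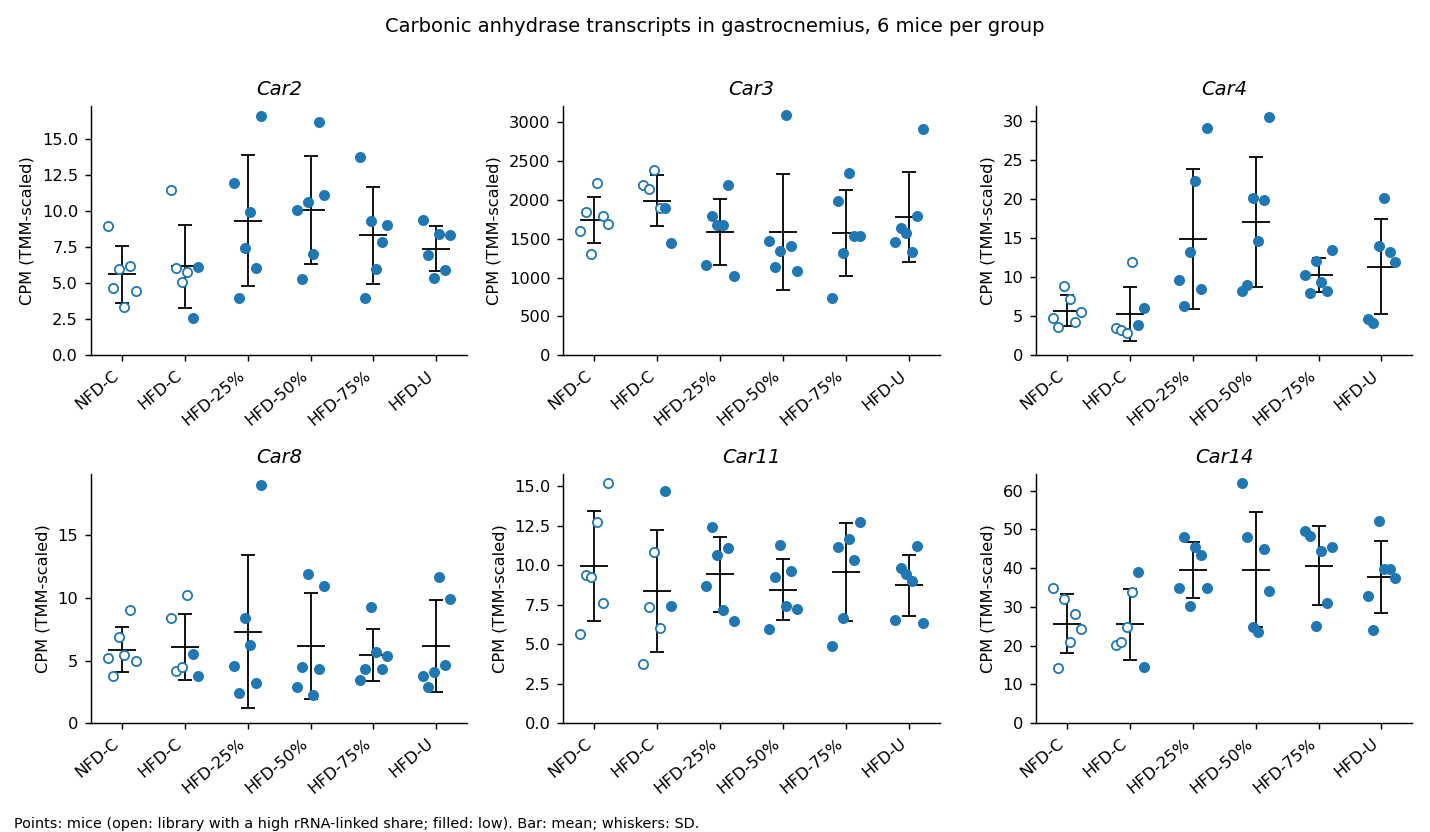
CPM per mouse of the 6 members with a mean count of at least 25, by group, with a point per mouse, a bar at the mean and whiskers of 1 SD (n = 6). Open points are libraries with a high ribosomal RNA-linked share. Car4 and Car14 points of the exercise groups all lie above the HFD-C median, and for all 6 members the exercise groups overlap with the controls.

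Car4 and Car14 were also compared with the high-share libraries taken into account, and whether the 2 genes differ in this was not tested. Within the HFD-C, the 2 low-share mice had 3.93 and 6.08 CPM of Car4, inside the 2.91 to 11.9 CPM of the 4 high-share mice. For Car14 they had 14.4 and 39.1 CPM, the lowest and the highest value of the group. With low-share libraries alone, the log2 difference of Car4 was 1.55 in the HFD-25%, 1.76 in the HFD-50%, 1.01 in the HFD-75% and 1.16 in the HFD-U, within the unadjusted limit in all but the HFD-U. When library set was added to the fit it was 1.54, 1.75, 1.01 and 1.16 in the same order, within the limit in the HFD-25% and HFD-50%. Car14 kept its sign in these fits but was outside the limit: it was 0.54 in the HFD-25%, 0.55 in the HFD-50%, 0.57 in the HFD-75% and 0.47 in the HFD-U in low-share libraries alone. These values rest on 2 low-share HFD-C mice.

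One HFD-C mouse weighs on Car4. HFD-C mouse 4 had 11.9 CPM, and the next highest HFD-C mouse 6.08 CPM. Without it the Car4 difference was 2.12 in the HFD-50%, 1.91 in the HFD-25%, 1.38 in the HFD-75% and 1.53 in the HFD-U. Over all 12 single-mouse omissions the HFD-50% difference of Car4 lay between 1.46 and 2.12 and stayed within the unadjusted limit, while in the HFD-U it was 0.86 and outside the limit without HFD-U mouse 4. The same mouse had the highest summed levels of endothelial and red blood cell markers in the HFD-C, 320 and 408 CPM. Car14 stayed within the limit in 12 of 12 omissions in the HFD-25% and HFD-75%, in 8 of 12 in the HFD-U and in 5 of 12 in the HFD-50%, where it was smallest, 0.45, without HFD-50% mouse 1.

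The bases upstream of the start of Car4 and Car14 are shown because these were the members that were higher in all 4 exercise groups. They are the 250 bases before the RefSeq transcription start on build GRCm38.p6, in the direction of the gene. RefSeq entries were found for 4 of the 8 members. Capitals mark matches, on either strand, to AGAACA, the half-site of the glucocorticoid receptor, and to the E-box CANNTG of muscle regulatory factors, both picked after an earlier look at these windows.
Car4 (chr11:84957504-84957753, + strand): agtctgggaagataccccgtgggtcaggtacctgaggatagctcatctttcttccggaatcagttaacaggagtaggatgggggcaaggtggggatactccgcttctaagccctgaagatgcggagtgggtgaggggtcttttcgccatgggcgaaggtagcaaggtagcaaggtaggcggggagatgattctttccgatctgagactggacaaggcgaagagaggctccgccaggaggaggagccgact
Car14 (chr3:95904686-95904935, - strand): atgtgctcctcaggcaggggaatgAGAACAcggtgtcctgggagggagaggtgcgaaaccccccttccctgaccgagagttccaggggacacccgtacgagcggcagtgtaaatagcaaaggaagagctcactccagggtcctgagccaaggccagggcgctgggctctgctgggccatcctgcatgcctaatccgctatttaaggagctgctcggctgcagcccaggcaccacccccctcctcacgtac
The Car14 window holds 1 match to AGAACA and none to CANNTG, and the Car4 window holds neither. Of 32851 such windows, 16.1% hold AGAACA and 66.2% hold CANNTG. The share of G and C was 56.4% for Car4 and 62% for Car14, against a mean of 53.2% over all windows.

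Car5b, the mitochondrial enzyme that supplies bicarbonate to pyruvate carboxylase, was counted 4 to 49 times per library. Its median was 1.09 CPM in the NFD-C, 0.639 in the HFD-C, 1.09 in the HFD-25%, 0.847 in the HFD-50%, 0.731 in the HFD-75% and 0.925 in the HFD-U. Without a minimum count the log2 difference from the HFD-C was 0.55 (95% interval -0.54 to 1.64) in the HFD-50% and 0.06 (-1.06 to 1.18) in the HFD-U. The lncRNA gene Gm38561 shares 9286 bases with Car5b on the opposite strand and had a mean of 69.7 counts, over 4 times the mean of 16.8 for Car5b.

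Car8 and Car11 belong to the relatives without catalytic activity, and Car8 is known to bind the inositol trisphosphate receptor. Car8 had a lowest, median and highest mouse of 3.79, 4.99 and 10.2 CPM in the HFD-C and 2.25, 4.43 and 11.9 CPM in the HFD-50%. The widest spread was in the HFD-25%, from 2.44 to 19.0 CPM with a median of 5.40 CPM. The groups overlapped almost wholly, and the log2 differences from the HFD-C were 0.24, 0.01, -0.18 and 0.01 from the HFD-25% to the HFD-U. Car11 had 3.78, 7.41 and 14.7 CPM in the HFD-C and 6.00, 8.33 and 11.3 CPM in the HFD-50%. Its log2 differences were 0.15, 0.01, 0.19 and 0.05 in the same order. Neither gene reached the unadjusted limit. The 95% intervals reached from -0.84 to 1.15 for Car8 and from -0.58 to 0.83 for Car11. With 6 mice a group, changes inside these intervals remain compatible with the data.

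**Figure D3:**
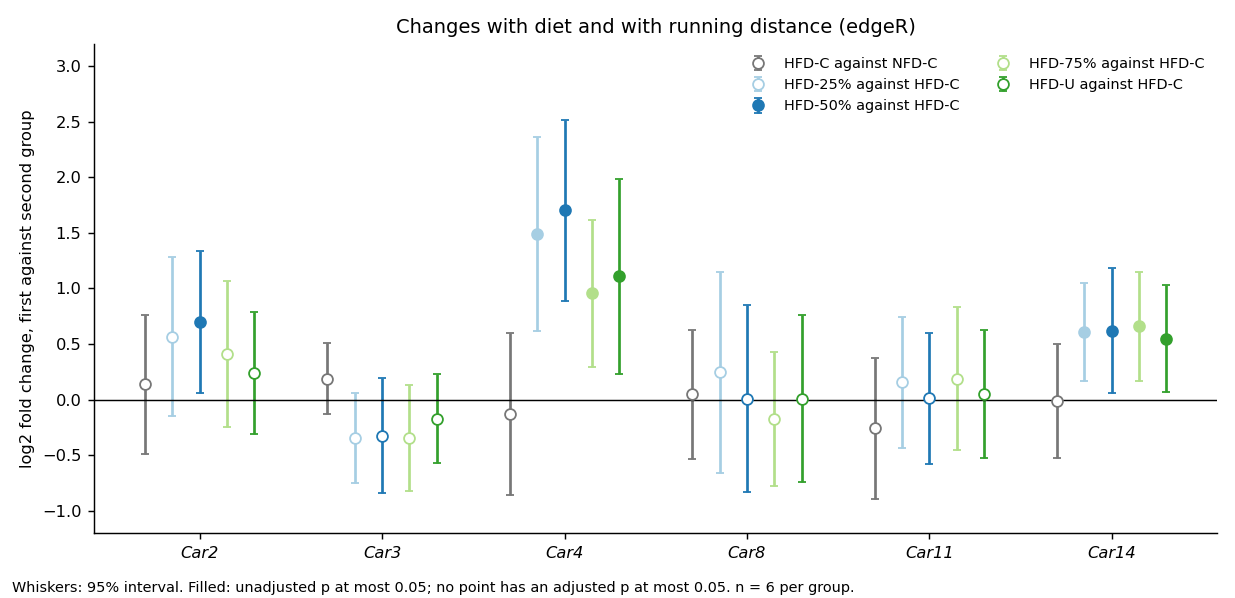
Log2 fold change from edgeR for the 6 tested members, HFD-C against NFD-C in grey and each exercise group against HFD-C in colour, with 95% intervals as whiskers. Filled points are within the unadjusted limit of 0.05; these are Car4 and Car14 at all 4 distances and Car2 at HFD-50%, and no adjusted p reached 0.05.

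At each distance 2 or 3 of the 6 tested members were within the unadjusted limit of 0.05, all of them higher. In the HFD-25%, 2 of 6 tested members were higher and 0 lower, with 3.4% of 12202 genes called higher and 3.58% lower. In the HFD-50%, 3 of 6 were higher and 0 lower, with 5.8% of 12116 genes called higher and 4.89% lower. In the HFD-75% it was again 2 of 6 and 0, with 2.31% and 3.16% of all genes, and in the HFD-U 2 of 6 and 0, with 2.15% and 3.31%. With all running mice together it was 2 of 6 and 0, with 4.15% and 5.12% of all genes. At an adjusted p of at most 0.05 edgeR called 0 of 6 members at each distance, where 0.0082% of all genes were called in the HFD-25% and 0% in the HFD-50%, HFD-75% and HFD-U. DESeq2 called 1 member, Car4, in the HFD-25% and HFD-50%, with 0.361% and 1.32% of all genes, and 0 in the HFD-75% and HFD-U, with 0.33% and 0.233%. With all running mice together edgeR called 0 members and 0.3% of all genes. The 4 comparisons share the 6 HFD-C mice, and the members were chosen with results of these data known. The median log2 difference of the 6 tested members from the HFD-C was 0.40 in the HFD-25%, 0.32 in the HFD-50%, 0.30 in the HFD-75% and 0.14 in the HFD-U, where the median of all genes lay within 0.02 of 0.

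The high-fat diet without exercise left 0 of 6 tested members within the unadjusted limit, where 4.12% of 12247 genes were, and 0 at an adjusted p of 0.05, where 0% were; DESeq2 also called 0, and 0.0163% of all genes. The log2 differences between the HFD-C and the NFD-C were 0.14 for Car2, 0.19 for Car3, -0.13 for Car4, 0.05 for Car8, -0.26 for Car11 and -0.01 for Car14. Their 95% intervals lay within -0.89 and 0.76, and for each gene any difference inside its own interval remains compatible with the data. With the share of ribosomal RNA-linked counts as a covariate, 1 member, Car11, was within the unadjusted limit at -0.63 (adjusted p = 0.706), where 7.05% of all genes were.

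Of the HFD-50% compared to each of the other distances, the one difference of a tested member within the unadjusted limit was that of Car4. It was 0.75 ± 0.28 (SE) higher on the log2 scale in the HFD-50% than in the HFD-75% (adjusted p = 0.838), where 5.37% of 11896 genes were called. Without HFD-50% mouse 6 this was 0.50 and outside the limit. No tested member was called between the HFD-50% and the HFD-25%, where 2.69% of genes were, or between the HFD-50% and the HFD-U, where 12.4% were. At an adjusted p of 0.05 no member was called in these 3 comparisons, and 0%, 0% and 0.00844% of all genes were. The Car4 difference was 0.22 (95% interval -0.59 to 1.03) against the HFD-25% and 0.59 (-0.23 to 1.42) against the HFD-U. In the order of group means, Car4 ran from the HFD-50% through the HFD-25%, HFD-U and HFD-75% to the NFD-C and HFD-C. Each step between neighbours was smaller than the SDs of both groups, with the exception of the step from 10.2 ± 2.17 CPM in the HFD-75% to 5.72 ± 1.99 CPM in the NFD-C.

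A curve of distance with a linear and a quadratic term over the HFD-C and the exercise groups was within the unadjusted limit for Car4 (adjusted p = 0.192), with its highest point at 58.0% of the unrestricted distance, and for Car14 (adjusted p = 0.265). These were 2 of 6 tested members, and 12.2% of 12006 genes were within the same limit. At an adjusted p of 0.05 it was 0 of 6 and 0.683%. With mouse number as a block the adjusted p of Car4 was 0.0145, in a fit whose share of all genes called is not given here. Among the running mice alone 0 of 6 members were within the unadjusted limit, where 8.49% of 11935 genes were, and 0 passed after adjustment, where 0.0419% did; the adjusted p was 0.825 for Car4 and 0.980 for Car14. In low-share libraries alone, or once library set entered the fit, no member was within the limit over the 5 groups.

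Family genes outside the 8 members were low. Car15, a membrane-anchored enzyme, had a mean of 16.3 counts and was tested without a minimum only: its median was 0.414 CPM in the HFD-C and 1.26, 1.25, 1.10 and 0.624 CPM from the HFD-25% to the HFD-U. The log2 difference was 1.43 in the HFD-25% (adjusted p = 0.511), 1.26 in the HFD-50% (adjusted p = 0.427) and 1.29 in the HFD-75% (adjusted p = 0.578), within the unadjusted limit, and 0.84 in the HFD-U (adjusted p = 0.645), outside it. Car1, the red cell isoform, had 0 to 25 counts per library and log2 differences of -1.01 to -0.47. Car7 and Car9 passed the minimum, with log2 differences of -0.18 to 0.33 and -0.50 to -0.07. None of these 3 reached the unadjusted limit at any distance. Car9 shares 4 bases with Tpm2, a tropomyosin gene on the opposite strand with a mean of 69474 counts against 36.8 for Car9.

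The tissue make-up moved with some members from mouse to mouse. Car2 went with the genes of slow oxidative fibres, which contract slowly and burn fat, and with fast myosins other than that of 2B fibres. Spearman's correlation with Car2 over 36 mice was above 0.5 for 9 of 9 slow fibre genes, with a median of 0.69, and 6.4% of all 12052 other genes were above 0.5. The highest was Casq2, the slow and cardiac calsequestrin, at 0.82. Myh2 and Myh1, the myosins of fast 2A and 2X fibres, had 0.74 and 0.65 with Car2. The list named fast 2B holds Myh4 and also genes shared with other fast fibres. For 6 of its 8 genes the correlation was below -0.5, where 3.46% of all genes were, with Pvalb, the calcium buffer of fast fibres, at -0.73. After the group means had been subtracted, the median correlation was 0.69 for slow and -0.52 for fast 2B genes, and in the 26 low-share libraries alone it was 0.60 and -0.61. The 3 genes most like Car2 were Nceh1 (0.85), Pank1 (0.85), which starts coenzyme A synthesis, and Cd36 (0.85), the fatty acid transporter.

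Car11 had the opposite pattern. Its correlation was above 0.5 for 7 of 8 fast 2B genes, with Pvalb at 0.73 and Actn3 at 0.69, and below -0.5 for 6 of 9 slow fibre genes, with Myoz2 at -0.74. Myh2 and Myh1 had -0.69 and -0.68 with Car11. Of all genes, 4.02% were above 0.5 and 5.99% below -0.5. The genes most like it were Myoz1 (0.79), a Z-disc protein of fast fibres, Tpm1 (0.79) and Fam71e1 (0.78). Car2 and Car11 themselves had a correlation of -0.59. Car3 had a correlation below -0.5 for 5 of 9 slow fibre genes and above 0.5 for none of 8 fast genes. Of all genes, 1.58% were below -0.5 and 1.11% above 0.5 with Car3. It was most like Mss51 (0.77), Psmd8 (0.73) and Gyg (0.72), the glycogen primer.

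Car4 and Car8 correlated with endothelial genes, and less closely with slow fibre genes. The correlation with Car4 was above 0.5 for 7 of 9 endothelial genes and with Car8 also for 7 of 9, where 7.47% and 4.5% of all genes reached this level. Car4 was highest with Esam, an adhesion molecule of endothelial junctions, at 0.76, and Car8 with Emcn at 0.72. After subtraction of group means the median correlation was 0.66 for Car4 and 0.73 for Car8, and in the 26 low-share libraries 0.69 and 0.66. With Car4, 4 of 9 slow fibre genes were also above 0.5, led by Tnnt1 at 0.61, and the median of the 9 was 0.49. With Car8 none was, and the median was 0.36, or 0.51 after the group means had been subtracted. For the fast 2B genes the median was -0.44 with Car4 and -0.36 with Car8. It was -0.43 and -0.39 after the group means had been subtracted. Red blood cell genes were above 0.5 with Car8 for 5 of 5 and with Car4 for 3 of 5. Car4 and Car8 had a correlation of 0.39 with each other, and 0.63 after the group means had been subtracted. Most like Car4 were Abcb1b (0.86), Fbxl12 (0.86) and C1qtnf9 (0.85), and most like Car8, after a feature without a name, were Tmem88 (0.79) and Tcim (0.78).

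For Car14 the correlations were weaker. Its median correlation was 0.04 for slow fibre, -0.07 for fast 2B and 0.20 for endothelial genes, and no gene of these lists was beyond 0.5 in either direction over the 36 mice. In the 26 low-share libraries the median was -0.37 for slow fibre genes, 0.01 for fast 2B, 0.01 for endothelial and -0.39 for red blood cell genes. The genes most like it, Ppp1r3c (0.69), a glycogen-targeting subunit of protein phosphatase 1, Fbh1 (0.68) and Mettl21e (0.66), were less close than those of the other members, and only 0.382% of all genes were above 0.5.

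**Figure D4:**
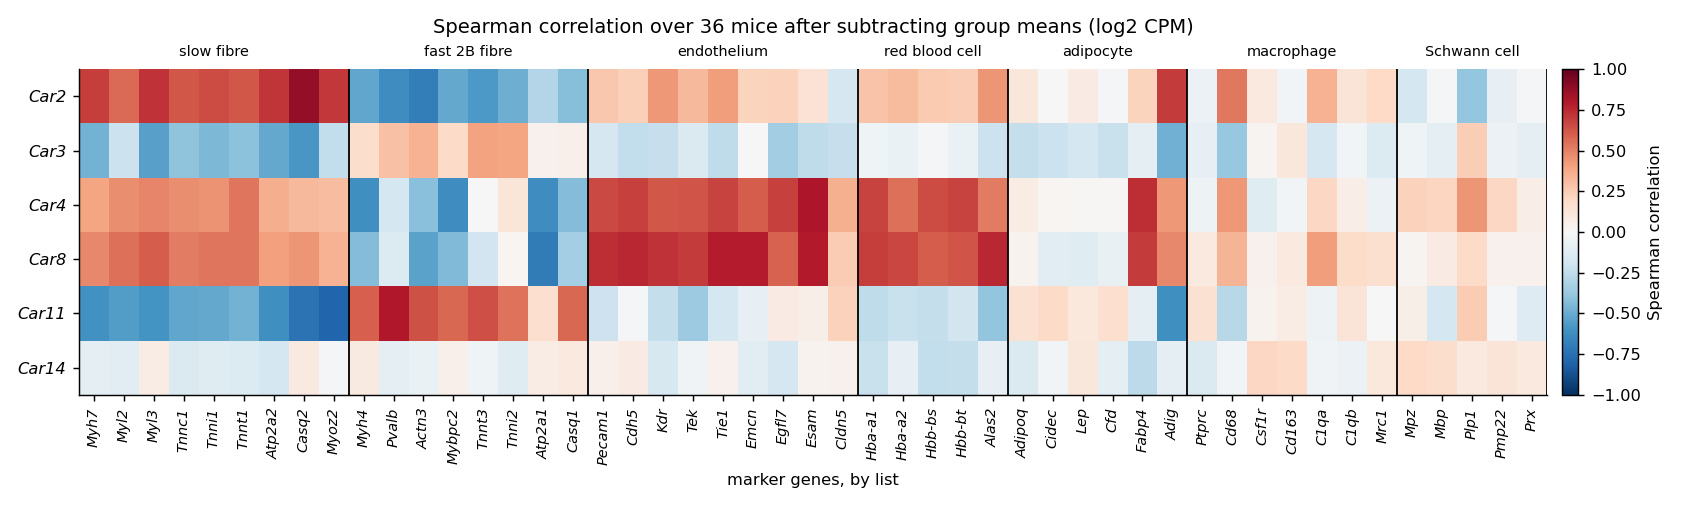
Spearman's correlation between each tested member and marker genes of fibre types and other cell types over 36 mice, after the mean of each group had been subtracted from the log2 CPM values. Red is positive and blue negative: Car2 is red over slow fibre genes and blue over fast 2B genes, and Car11 the reverse. Car4 and Car8 are red over endothelial and red blood cell genes and, more faintly, slow fibre genes, and blue over most fast 2B genes. Car14 is pale throughout.

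Endothelial markers were higher than in the HFD-C in some exercise groups. Within the unadjusted limit, 5 of 9 were higher in the HFD-25%, 4 in the HFD-50%, 2 in the HFD-75% and 0 in the HFD-U, where 3.4%, 5.8%, 2.31% and 2.15% of all genes were. In the HFD-U 5 of the 9 had a difference below 0, while Car4 was 1.11 higher. The summed level of the 9 genes ranged from 182 to 320 CPM in the HFD-C, 185 to 606 in the HFD-25%, 204 to 464 in the HFD-50%, 211 to 396 in the HFD-75% and 162 to 359 in the HFD-U. None of the 9 was at 0 in any library. Their median log2 difference from the HFD-C was 0.62, 0.43, 0.20 and -0.07 from the HFD-25% to the HFD-U, below the Car4 differences of 1.49, 1.70, 0.96 and 1.11. Over the HFD-C and exercise groups, Cldn5, a tight junction protein (adjusted p = 0.0108), and Egfl7 (adjusted p = 0.0365) passed the curve of distance. The part of the endothelium in the Car4 result was not tested. In the HFD-25%, mouse 6 had the highest summed endothelial level of the 36 mice, 606 CPM, the lowest summed fast 2B level, 67392 CPM, and the highest Car8 level, 19.0 CPM. Without it the Car4 difference in the HFD-25% was 1.19.

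Slow fibre genes, which moved with Car2, were not called in any exercise group against the HFD-C. Their summed level was spread widely, from 170 to 2418 CPM in the HFD-C and from 737 to 4120 CPM in the HFD-50%, and none of 9 was within the unadjusted limit at any distance. Their median log2 difference was 0.13 in the HFD-25%, 0.71 in the HFD-50%, -0.17 in the HFD-75% and -0.59 in the HFD-U, where Car2 differed by 0.57, 0.69, 0.41 and 0.24. In the HFD-50% compared to the HFD-U, 6 of 9 were higher, where 12.4% of all genes were called in either direction, and Car2 was 0.45 higher (95% interval -0.05 to 0.94). Of the 8 genes of the fast 2B list, 2 were lower in the HFD-50% than in the HFD-C, where 4.89% of all genes were. All 8 had a difference below 0 there, and all 9 slow fibre genes a difference above 0. At the other distances no fast 2B gene was called against the HFD-C. The summed level of the red blood cell genes, among them Alas2 and the globins, was 170 to 408 CPM in the HFD-C and 136 to 381 CPM in the HFD-50%, while Slc4a1 was at 0 in 15 libraries. None of 5 red blood cell genes was called in the HFD-25% and HFD-50%, and 1 was lower in each of the HFD-75% and HFD-U, where 3.16% and 3.31% of all genes were. Of the adipocyte genes, 1 of 6 was lower in the HFD-25%, where 3.58% of all genes were, and 3 of 6 in the HFD-U. Their summed level was 118 to 458 CPM over the 36 mice, with Adipoq and Lep at 0 in 2 libraries each. That sum was mostly Fabp4, with a mean of 221 CPM against 6.94 CPM for Cfd, the next highest gene of the list. No gene of the Schwann cell and macrophage lists had a correlation beyond 0.5 in either direction with any tested member before the group means were subtracted. The part of these cells in the results was not tested.

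Partners of the enzymes were read from lists of genes that make or use bicarbonate, carry it, or share the nitrogen pathway. The list of 17 tested transporters of bicarbonate, protons and lactate also holds the water channels Aqp1 and Aqp4. By the unadjusted limit, Aqp1 was the 1 gene called in the HFD-25%, where 3.4% of all genes were higher. In the HFD-50% Aqp1 and Slc4a3 were higher, where 5.8% of all genes were, and Slc4a4 was lower, where 4.89% were. In the HFD-75% Aqp1 was higher and Slc9a9, a sodium-proton exchanger, lower, where 2.31% and 3.16% were, and none was called in the HFD-U. Slc4a3, a chloride-bicarbonate exchanger, had 5.17 to 11.3 CPM in the HFD-C and 8.38 to 16.1 CPM in the HFD-50%, a log2 difference of 0.78 ± 0.22 (adjusted p = 0.200). It was also 0.76 higher in the HFD-50% than in the HFD-U (adjusted p = 0.194). Aqp1, the water channel of capillaries and red cells, was higher by 0.81 (adjusted p = 0.452) in the HFD-25%, 0.57 (adjusted p = 0.400) in the HFD-50% and 0.40 (adjusted p = 0.725) in the HFD-75%. Slc4a4, a sodium-bicarbonate cotransporter, was the lower one in the HFD-50%, at -0.62 (adjusted p = 0.463).

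Glul, the glutamine synthetase that shares the nitrogen pathway with the carbonic anhydrases, had 318 to 585 CPM in the HFD-C, 538 to 1293 CPM in the HFD-50% and 594 to 1054 CPM in the HFD-75%. In the HFD-75% no mouse overlapped with the HFD-C, as was the case for 0.264% of all genes. The log2 difference was 0.83 ± 0.24 in the HFD-50% (adjusted p = 0.213) and 0.76 ± 0.20 in the HFD-75% (adjusted p = 0.397), both within the unadjusted limit. Glud1, the glutamate dehydrogenase, differed by 0.03 in the HFD-50% (adjusted p = 0.959). Of 7 bicarbonate-using carboxylases, none was called in the HFD-50%, where the smallest p-values belonged to Pcca (-0.18, adjusted p = 0.619) and Mccc1 (0.18, adjusted p = 0.655), subunits of the propionyl-CoA and methylcrotonyl-CoA carboxylases, and 1 was higher in the HFD-75%, where 2.31% of all genes were. No gene of these 3 lists passed an adjusted p of 0.05 in any comparison.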

How the data were processed

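RNA from 1 gastrocnemius per mouse (36 mice, 6 per group) was sequenced. Per the labels, the deposited values are raw read counts per gene, made by the authors with HISAT2 2.0.5 and featureCounts 1.5.0-p3; mm10 is named there, while the chromosome accessions in the table are those of GRCm39. Strand use in counting is not given in the sources used here. CPM were computed with TMM factors. Each pair of groups was fitted alone with edgeR 4.0.16 (quasi-likelihood F-test, two-sided, mean count of at least 25, Benjamini-Hochberg adjustment over all genes), and the distance curves likewise. The limits were an unadjusted p of 0.05, as in the study, and an adjusted p of 0.05. For members against the HFD-C an exact two-sided permutation test of the mean log2 CPM over all 924 splits was added after the data had been seen. Likeness was Spearman's correlation of log2 CPM (prior count 2).

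Alternatives were DESeq2 1.42.0, no minimum count, RLE size factors, mouse number as a block, all groups in 1 fit, the ribosomal RNA-linked share as a covariate or library set, and leaving out mice. The members and gene lists were chosen with earlier results of these data known. Named genes were all members, the other family genes, the 2 genes with the smallest p in the HFD-50% against the HFD-C from each partner list and any list gene at an adjusted p of at most 0.05; Slc4a4, Slc9a9, Aqp1, Tpm2 and the single marker genes were picked with their values in view. The steps were tested on simulated data. Mice of a group differed by far more than sampling noise (chi-square per degree of freedom 16.2 to 218), so none was taken for a repeat of another.

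Mouse numbers 1 to 6 recur in every group without a stated meaning. In the HFD-U against the HFD-C all 6 same-numbered pairs deviated together (correlations 0.125 to 0.510), and elsewhere 1 to 5 of 6 did. Pairs with different numbers were not compared, so these values cannot show whether mice were paired by number.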

Additional observations from a re-analysis of the deposited data

Results flagged for a closer look

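In 48 groups of 6 mice (8 members, 6 groups), 4 single mice stood apart from the other 5 by Dixon's test, and chance alone flags about 1 in 20 groups. Car4 in HFD-C mouse 4 was 11.9 CPM, with the next mouse at 6.08 CPM. Car3 in HFD-50% mouse 4 was 3088 CPM, with the next at 1464 CPM, and Car3 in HFD-U mouse 6 was 2911 CPM, with the next at 1786 CPM. Car8 in HFD-25% mouse 6 was 19.0 CPM, with the next at 8.36 CPM. The HFD-C mouse had the highest summed red blood cell level of the 36 mice, 408 CPM, and the HFD-25% mouse the highest summed endothelial level, 606 CPM.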

How the results depend on the processing

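The direction of Car2, Car4 and Car14 against the HFD-C was the same under every alternative run, and the calls depended on the fit. At an adjusted p of 0.05, against 0 as reported, 1 member was called by DESeq2 in the HFD-25%, the HFD-50% and all running mice, without a minimum count in the HFD-50% and all running mice, in 1 fit over all groups in the HFD-50%, and with mouse number as a block in the HFD-50%, all running mice and the curve over the HFD-C and exercise groups. At the unadjusted limit the block gave 4 members in the HFD-25% (2 reported) and 1 between the HFD-50% and HFD-U (0 reported). The block changed no other count by more than 1.5 times. In the HFD-U against the HFD-C, where all 6 same-numbered pairs deviated together, the block left the count at 2. Once the ribosomal share entered as a covariate, 1 member was called in the HFD-75% and HFD-U (2 reported), 1 between the HFD-C and NFD-C (0), 2 between the HFD-50% and HFD-U (0) and 1 on the curve (2). Library set as a term gave 1 in the HFD-25% and 0 in the HFD-75%, the HFD-U and on the curve; low-share libraries gave 1 in the HFD-25%, HFD-75% and HFD-U and 0 on the curve. Mice 2 to 6 gave 1 in the HFD-U, the group factor 1 on the curve, and 1 fit over all groups 0 between the HFD-50% and HFD-75% (1 reported). The cause was not tested. For the alternative fits, shares of all genes called are given above only for DESeq2 between single groups and the HFD-C, and for the covariate between the HFD-C and NFD-C. The other counts in this section, with those from leaving out single mice, cannot be weighed against calls over all genes.

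With single mice left out, the members at the unadjusted limit numbered 1 to 4 in the HFD-50%, 1 to 3 in the HFD-U, 1 to 3 on the curve, 0 to 1 between the HFD-50% and HFD-75% and 0 to 2 between the HFD-50% and HFD-U, and at an adjusted p 0 to 1 in the HFD-50% and in all running mice. The count in the HFD-50% was 1 without HFD-C mouse 2, 3 or 6 or HFD-50% mouse 5, in the HFD-U 1 without HFD-C mouse 2 or 6 or HFD-U mouse 3 or 4, and on the curve 1 without HFD-C mouse 6. Between the HFD-50% and HFD-75% it was 0 without HFD-50% mouse 6, and between the HFD-50% and HFD-U 1 without HFD-50% mouse 2 and 2 without mouse 4. Both calls at an adjusted p came without HFD-C mouse 4.

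Changes of sign occurred only in differences that were not called. Car11 against the HFD-C, from the HFD-25% to the HFD-U and then in all running mice, was -0.35, -0.35, -0.30, -0.46 and -0.32 with the covariate, -0.26, -0.41, -0.23, -0.37 and -0.31 with the library set, and -0.25, -0.40, -0.23, -0.37 and -0.31 in low-share libraries; in mice 2 to 6 it was -0.061 in the HFD-50% and -0.032 in the HFD-U. Car8 with the block was -0.035 in the HFD-25%, -0.14 in the HFD-50%, -0.091 in the HFD-U, -0.18 in all running mice and -0.041 between the HFD-50% and HFD-U. In the HFD-75% Car8 was 0.14 with the covariate, 0.20 with the library set and in low-share libraries, and 0.031 in mice 2 to 6. Without a minimum count Car8 was -0.0077 in the HFD-50% and -0.026 between the HFD-50% and HFD-U, where it was -0.38 with the covariate and -0.0013 with DESeq2. By mean log2 CPM, the measure of the exact permutation test, it was -0.16 in the HFD-50% and -0.071 in the HFD-U. Car3 in the HFD-U was 0.068 with the covariate, 0.071 with the library set and 0.072 in low-share libraries. Between the HFD-50% and HFD-25%, Car3 was -0.040 with the block and -0.36 with the covariate, Car14 -0.047 with the block and Car4 -0.014 with the covariate. Between the HFD-50% and HFD-75%, Car3 was -0.012 without a minimum and -0.21 with the covariate, and Car14 0.19 with the covariate.

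Leaving out single mice turned the sign of other differences that were not called. Against the HFD-C, Car8 ranged from -0.31 to 0.45 in the HFD-25%, -0.30 to 0.22 in the HFD-50%, -0.39 to 0.033 in the HFD-75%, -0.28 to 0.21 in the HFD-U and -0.11 to 0.23 in all running mice, and Car11 from -0.0028 to 0.40 in the HFD-25%, -0.15 to 0.26 in the HFD-50%, -0.11 to 0.29 in the HFD-U and -0.055 to 0.34 in all running mice. Between the HFD-C and NFD-C the ranges were -0.12 to 0.32 for Car2, -0.55 to 0.046 for Car4, -0.16 to 0.21 for Car8 and -0.17 to 0.11 for Car14. Between the HFD-50% and HFD-25% they were -0.063 to 0.37 for Car2, -0.30 to 0.13 for Car3, -0.031 to 0.52 for Car4, -0.54 to 0.32 for Car8 and -0.16 to 0.12 for Car14. Between the HFD-50% and HFD-75% they were -0.29 to 0.17 for Car3, -0.12 to 0.40 for Car8 and -0.20 to 0.074 for Car14. Between the HFD-50% and HFD-U they were -0.47 to 0.034 for Car3, -0.31 to 0.28 for Car8, -0.14 to 0.046 for Car11 and -0.10 to 0.19 for Car14. Depth limits Car5b and Car13, which have few counts. The exact permutation test, mice 2 to 6 and the high-share libraries were added after seeing the data.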
